A study of Mus musculus with 6 samples.

Results

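Transcripts of 9 genes that start TGF-β and BMP signaling were measured in M2c-polarized macrophages from mice with and without the soluble epoxide hydrolase (sEH). The genes were 2 ligands (Tgfb1, Inhba), 2 type II receptors (Tgfbr2, Bmpr2), 4 type I receptors (Tgfbr1 or Alk5, Acvrl1 or Alk1, Acvr1 or Alk2, Bmpr1a or Alk3) and the co-receptor endoglin (Eng). They were found by their symbols among the 19309 genes of the count matrix, and all 9 were among the 13785 genes that averaged more than 5 counts per library and were tested.

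In TGF-β and BMP signaling, a dimeric ligand brings type II and type I receptor kinases together, and the type II receptor phosphorylates the type I receptor. The type I receptor then phosphorylates receptor Smads. Alk5 acts mainly on Smad2 and Smad3, whereas Alk1, Alk2 and Alk3 act mainly on Smad1, Smad5 and Smad9. Macrophages produce TGF-β1 and activin A and also respond to both, and TGF-β1 is used in culture to obtain the pro-resolving M2c state.

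Macrophages came from 3 sEH-/- mice, which lack the sEH gene Ephx2 in every cell, and from 3 wild-type mice. According to the methods, the genotypes were littermates of the same strain, mainly female, and 8 to 10 weeks old. Bone marrow monocytes were differentiated for 7 days with 15 ng/mL each of M-CSF and GM-CSF, then exposed to LPS (10 ng/mL) with IFN-γ (1 ng/mL), and then to TGF-β1 (10 ng/mL). The labels give 24 h for LPS with IFN-γ and 48 h for TGF-β1, whereas the methods of the study give 12 h and either 24 h or 48 h. Both genotypes received the whole sequence, so that every library comes from cells given exogenous TGF-β1 and no library shows the level of a receptor before it. The 9 genes were compared to ask whether loss of sEH alters transcripts of the receptors through which TGF-β1 acts.

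The libraries held 4400197 to 6096440 counts, and the wild-type replicate 2 and sEH-/- replicate 1 libraries were the largest. Ephx2 was read 4, 2 and 1 times in sEH-/- replicates 1 to 3, against 26, 49 and 57 times in the wild-type replicates, so that the targeted gene followed the genotype labels. All 8 macrophage markers examined (among them Adgre1 and Csf1r) were above 1 CPM, a count normalized for library size, with a summed level of 1970 to 2460 CPM in sEH-/- and 1790 to 2230 CPM in wild-type libraries. None of the markers of other cell types that could be tested was called between the genotypes, and lymphocyte markers summed to at most 0.807 CPM. In bulk RNA a smaller number of cells of one type and less RNA per cell cannot be told apart.

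Compared per kilobase of exonic length, the members differed by almost an order of magnitude within the wild-type macrophages. Inhba, the activin A subunit, had the highest level at 59.2 ± 0.91 CPM per kb (SD, n = 3 mice), followed by Eng at 46.6 ± 5.77. Acvrl1 (37.4 ± 1.6), Tgfb1 (35.0 ± 1.69) and Tgfbr1 (34.2 ± 3.67) came next and overlapped one another. Tgfbr2 lay at 26.4 ± 1.59 CPM per kb, below every wild-type value of Tgfbr1. Bmpr2 (12.4 ± 1.52) and Acvr1 (12.2 ± 0.39) overlapped, and Bmpr1a had the lowest level at 6.10 ± 1.03 CPM per kb. Every other pair of neighbors in this order had ranges that did not overlap over the 3 wild-type libraries. The order was similar in sEH-/- macrophages, where Inhba (56.7 ± 5.71) and Eng (54.1 ± 3.97) were again highest but overlapped, and Bmpr1a (5.38 ± 2.0) was again lowest. The position of Tgfb1 depended on the length used, since with its longest transcript in place of all its exons it came first at 68.5 CPM per kb in wild-type macrophages.

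**Figure D1:**
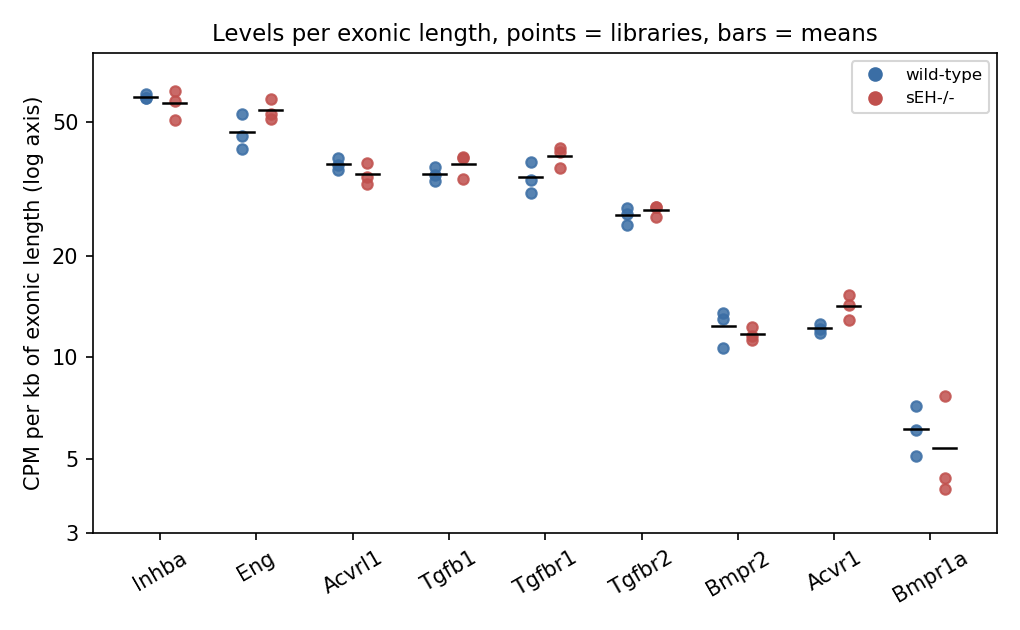
Level of each ligand and receptor in CPM per kb of exonic length (log axis) in wild-type (blue) and sEH-/- (red) libraries, where points are libraries and bars are means. The genes are ordered by the wild-type mean, from Inhba at 59.2 to Bmpr1a at 6.10, and the colors overlap for every gene except Acvr1.

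None of the 9 genes was called between the genotypes by edgeR's quasi-likelihood test, where a call needed an adjusted p below 0.05 together with a change of more than 1.5-fold. Calls made up 2.61% of all tested genes. DESeq2 (3.56% of genes called), limma-voom (2.23%) and a fit with replicate number as a block (1.7%) called none of the 9 either, and 2 members had an unadjusted p below 0.05 with DESeq2, as 16.8% of all genes did, and also with limma-voom, as 23.5% did. With adjusted p below 0.05 alone, which 4.01% of the tested genes met, there was again no member. The log2 fold changes (sEH-/- over wild-type) lay between -0.17 and 0.23 with a median of 0.049, compared with -0.00092 for all tested genes. The log2 fold change was positive for 5 members and negative for 4, where 49.8% of all tested genes were positive. For 8 of the 9 members the 95% interval lay within a 1.5-fold change in either direction, as for 61% of the tested genes, so that in these libraries a change of the size needed for a call was outside the interval. The exception was Bmpr1a. An unadjusted p below 0.05 was found for 3 members (Tgfbr1, Acvr1 and Eng), all higher in sEH-/- macrophages, which is 3 of 9 where 23.4% of the tested genes had such a p and 11.1% had one with a higher level in sEH-/-. No member had such a p in edgeR fits with a replicate block or after removal of sEH-/- replicate 2 or of either replicate 2 or 3 of the wild-type. Acvr1 was the only member whose libraries did not overlap between the genotypes, which held for 26.3% of the tested genes and, with sEH-/- higher, for 11.8%.

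**Figure D2:**
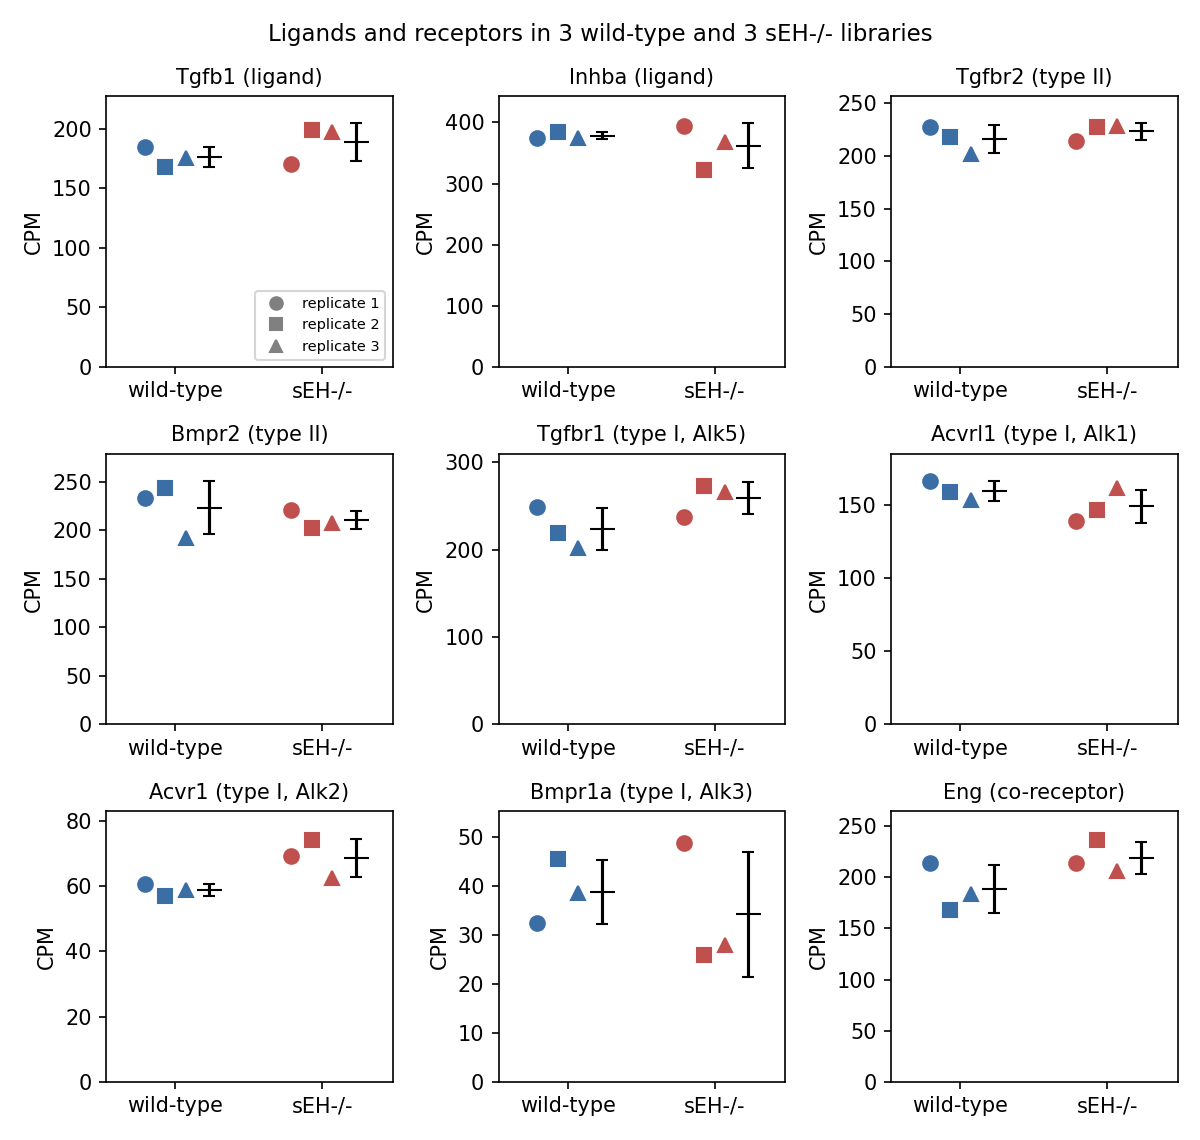
CPM of the 2 ligands, 6 receptors and endoglin in each library, with wild-type in blue, sEH-/- in red, marker shapes for the replicate number and the mean ± SD to the right of each group. Only the Acvr1 points separate by genotype, from 56.9 to 60.7 CPM in wild-type and from 62.4 to 74.0 CPM in sEH-/- libraries.

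Of the ligands, Tgfb1 encodes the cytokine that was itself added to the cultures, so that these counts report the cells' own transcripts. Tgfb1 (ENSMUSG00000002603, mm10 chromosome 7 from 25687002 to 25705077, plus strand) had 171, 199 and 197 CPM in the sEH-/- libraries and 185, 168 and 176 CPM in the wild-type libraries. The lowest sEH-/- library lay within the wild-type range and the other two above it. The log2 fold change was 0.10 (SE 0.08, 95% interval -0.078 to 0.28, adjusted p = 0.50 from edgeR).

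Inhba (ENSMUSG00000041324, chromosome 13 from 16011851 to 16031621, plus strand) encodes the βA subunit that dimerizes into activin A. It was measured at 395, 323 and 368 CPM in sEH-/- and at 375, 385 and 375 CPM in wild-type libraries. The wild-type libraries were close together, and the sEH-/- libraries lay on both sides of them. The log2 fold change was -0.063 (SE 0.089, 95% interval -0.26 to 0.13, adjusted p = 0.72 from edgeR), and it was 0.030 without sEH-/- replicate 2, the library with 323 CPM.

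The type II receptors showed the same overlap. Tgfbr2 (ENSMUSG00000032440, chromosome 9 from 116084293 to 116175360, minus strand), the ligand-binding kinase for TGF-β1, had 214, 228 and 228 CPM in sEH-/- and 228, 218 and 202 CPM in wild-type libraries. The ranges overlapped, with 1 wild-type library below all sEH-/- libraries, and the log2 fold change was 0.049 (SE 0.074, 95% interval -0.12 to 0.21, adjusted p = 0.75 from edgeR). Bmpr2 (ENSMUSG00000067336, chromosome 1 from 59763400 to 59879014, plus strand), the type II receptor for BMPs, had 221, 203 and 208 CPM in sEH-/- libraries. In wild-type libraries Bmpr2 was at 234, 244 and 192 CPM, so that the wild-type libraries enclosed all 3 sEH-/- libraries. The log2 fold change of Bmpr2 was -0.082 (SE 0.094, 95% interval -0.29 to 0.13, adjusted p = 0.65 from edgeR).

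Of the type I receptors, Tgfbr1 (ENSMUSG00000007613, chromosome 4 from 47353222 to 47414931, plus strand) encodes Alk5, the kinase that phosphorylates Smad2 and Smad3. Tgfbr1 had 238, 272 and 266 CPM in sEH-/- and 249, 219 and 201 CPM in wild-type libraries. The genotypes overlapped only through sEH-/- replicate 1, which lay below wild-type replicate 1. The means were 259 ± 18.5 and 223 ± 24.0 CPM (SD, n = 3 each), a 1.16-fold higher level in sEH-/- with a 95% interval from 1.01 to 1.34. On the log2 scale the difference was 0.21 (SE 0.093), which did not pass the correction over all genes (adjusted p = 0.20 from edgeR).

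Acvrl1 (ENSMUSG00000000530, chromosome 15 from 101128522 to 101145336, plus strand) encodes Alk1, a type I receptor for BMP9 that also takes part in TGF-β signaling in endothelium. It had 139, 147 and 161 CPM in sEH-/- and 167, 159 and 153 CPM in wild-type libraries. The highest sEH-/- library lay within the wild-type range and the other two below it, with a log2 fold change of -0.099 (SE 0.075, 95% interval -0.27 to 0.068, adjusted p = 0.47 from edgeR).

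Acvr1 (ENSMUSG00000026836, chromosome 2 from 58388644 to 58567157, minus strand) encodes Alk2, a type I receptor for BMPs. Acvr1 had 69.1, 74.0 and 62.4 CPM in sEH-/- and 60.7, 56.9 and 58.6 CPM in wild-type libraries, so that all 3 sEH-/- libraries were above all 3 wild-type libraries. The gap between the nearest libraries was smaller than the spread within the sEH-/- group. Acvr1 was 1.17-fold higher in sEH-/- (95% interval 1.02 to 1.34, log2 fold change 0.23, SE 0.086), again without passing the correction (adjusted p = 0.15 from edgeR).

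Bmpr1a (ENSMUSG00000021796, chromosome 14 from 34410734 to 34503341, minus strand) encodes Alk3, a type I receptor for BMP2 and BMP4, and was the least abundant and most variable member. It had 48.8, 25.8 and 27.8 CPM in sEH-/- and 32.3, 45.4 and 38.5 CPM in wild-type libraries, from 120 to 285 counts. The coefficient of variation was 37.2% in sEH-/- and 16.9% in wild-type libraries, where counting alone would give 7.15%. The log2 fold change was -0.17 (SE 0.22, 95% interval -0.67 to 0.32, adjusted p = 0.69 from edgeR). It was -0.54 (adjusted p = 0.062) without sEH-/- replicate 1, the library with 48.8 CPM, and 0.012 (adjusted p = 0.99) without sEH-/- replicate 2, so that the value rests on single libraries.

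Eng (ENSMUSG00000026814, chromosome 2 from 32646595 to 32682669, plus strand) encodes endoglin, a co-receptor that binds ligand together with the kinases and is best known from endothelium. It had 214, 237 and 206 CPM in sEH-/- and 214, 168 and 183 CPM in wild-type libraries. Wild-type replicate 1 reached the level of the sEH-/- libraries, whereas the other two wild-type libraries were below all of them. The log2 fold change was 0.22 (SE 0.097, 95% interval 0.0028 to 0.43), and it did not pass the correction (adjusted p = 0.21 from edgeR).

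As Eng and Acvrl1 are endothelial genes as well, endothelial markers were read beside them. Of 8 listed, the 5 analyzed (Cdh5, Pecam1, Kdr, Tie1 and Vwf) summed to 171, 111 and 121 CPM in sEH-/- and to 149, 162 and 147 CPM in wild-type libraries. Vwf was at 63.8 to 115 CPM and Kdr at 33.3 to 52.1 CPM, whereas the junctional cadherin Cdh5 lay between 0.359 and 2.09 CPM. Those 3 markers overlapped between the genotypes. Tie1 was sparse but higher in every sEH-/- library, at 0.513 to 1.21 CPM (3 to 6 counts) against at most 0.179 CPM (0 or 1 count). Pecam1 reached 13.3 CPM in sEH-/- replicate 1 and stayed at 3.23 to 3.96 CPM elsewhere. The part of these markers in the levels of Eng and Acvrl1 was not tested. Stromal markers summed to 70.7 CPM in wild-type replicate 2 and to 9.23 to 33.7 CPM in the other libraries.

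**Figure D3:**
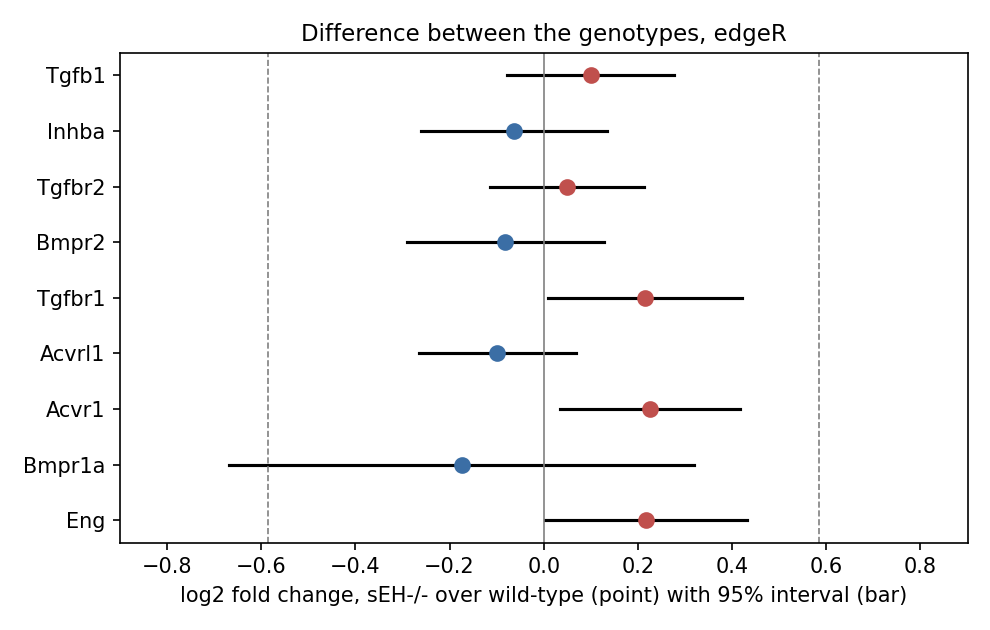
Log2 fold change of each gene, sEH-/- over wild-type (point, red above and blue below 0), with its 95% interval from edgeR (bar), and dashed lines at a 1.5-fold change in either direction. The intervals of Tgfbr1, Acvr1 and Eng lie above 0 but inside the dashed lines, and the interval of Bmpr1a, from -0.67 to 0.32, is the only one to cross a dashed line.

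For Tgfb1, Tgfbr1, Tgfbr2, Bmpr1a and Inhba the larger and the smaller libraries separated. The full order of the libraries, however, did not follow the library total. The 3 largest libraries (sEH-/- replicate 1 and wild-type replicates 2 and 3) had the 3 lowest values of Tgfb1, of Tgfbr1 and of Tgfbr2. They also had the 3 lowest sums of the macrophage markers (1970, 1790 and 1840 CPM, against 2230 to 2460 CPM). Their values of Bmpr1a, of Inhba and of the marker Vwf were the 3 highest. For Inhba the margin was small, with 375.2 CPM in wild-type replicate 3 and 374.8 CPM in wild-type replicate 1. When library totals entered the edgeR fit as a log term, the log2 fold changes were 0.17 for Tgfbr1 (adjusted p = 0.20), 0.23 for Acvr1 (adjusted p = 0.17), 0.19 for Eng (adjusted p = 0.23) and -0.046 for Bmpr1a (adjusted p = 0.89). The members carried 0.0308 (Bmpr1a) to 0.304 (Inhba) counts per exonic base, after a removal of duplicates that left no tested gene above 0.972. Among the 4067 tested genes with 0.1 to 0.4 counts per exonic base, which include 6 of the members, 56.7% had a positive log2 fold change and the median was 0.023.

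In a ratio of 2 members from the same library the library total and the normalization factor cancel, and 6 such ratios were compared. A gene level that itself goes with the library total does not cancel. The 3 largest libraries named above had the 3 highest ratios of Inhba to Tgfb1 and of Bmpr1a to Bmpr2. No other of the 6 ratios separated these libraries from the rest. Within each genotype, however, Tgfbr1 to Tgfbr2 was lower in these libraries. The ratio of the type I receptor Tgfbr1 to its partner Tgfbr2 was 0.15, 0.26 and 0.22 on the log2 scale in sEH-/- libraries against 0.13, 0.0086 and -0.0051 in wild-type libraries. All sEH-/- values lay above all wild-type values, with a difference of 0.17. The ratio of Acvrl1 to Tgfbr1, Alk1 to Alk5, was -0.77, -0.89 and -0.72 in sEH-/- against -0.58, -0.47 and -0.39 in wild-type libraries, a difference of -0.32 without overlap. The ratio of Acvr1 to Acvrl1, Alk2 to Alk1, was -1.01, -0.98 and -1.37 in sEH-/- against -1.46, -1.48 and -1.39 in wild-type libraries. It differed by 0.32, again without overlap, although sEH-/- replicate 3 lay next to the wild-type libraries.

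For each of these 3 ratios the two-sided exact permutation test gave p = 0.1 (adjusted p = 0.2 over the 6 ratios), the smallest p that 3 against 3 libraries can give, so that the test could not reach 0.05. Among all pairs of tested genes, 26.8% had ratios that did not overlap between the genotypes. The other 3 ratios overlapped. Their differences were 0.17 for Eng to Tgfbr2 (exact permutation p = 0.3, adjusted p = 0.45), -0.17 for Inhba to Tgfb1 (exact permutation p = 0.4, adjusted p = 0.48) and -0.15 for Bmpr1a to Bmpr2 (exact permutation p = 0.8).

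**Figure D4:**
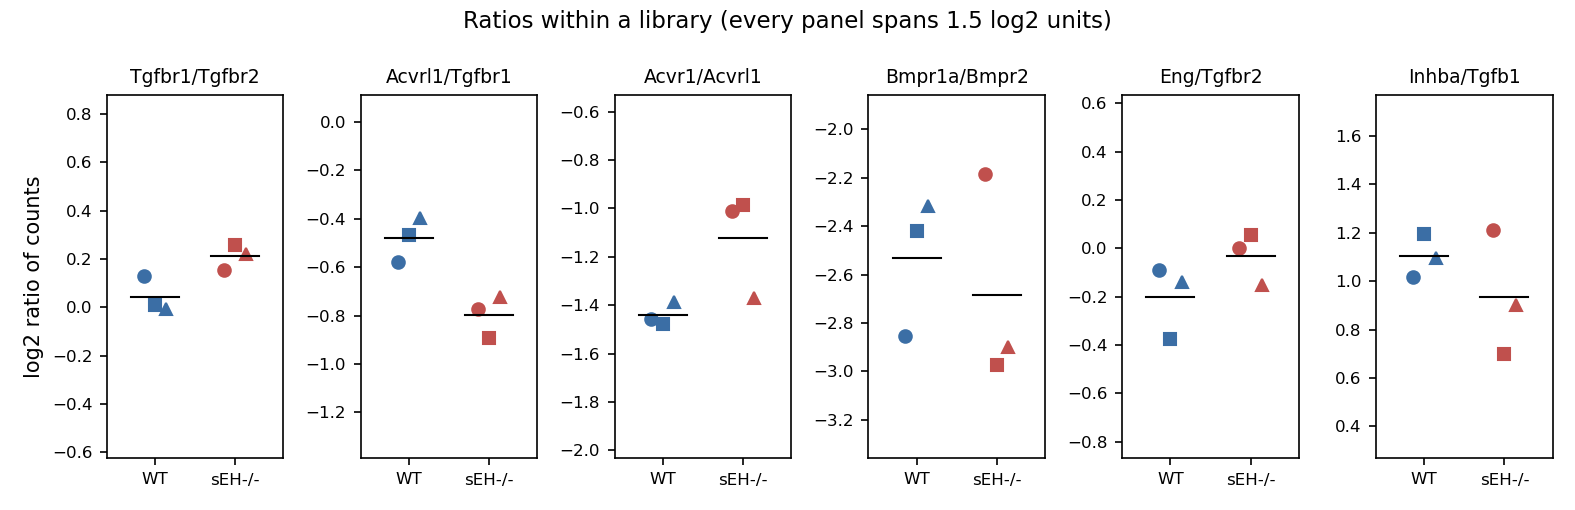
Log2 ratio of the counts of 2 members in the same library, wild-type (WT, blue) and sEH-/- (red), with marker shapes for the replicate number, lines at the means and the same span of 1.5 log2 units in every panel. The genotypes separate for Tgfbr1/Tgfbr2, Acvrl1/Tgfbr1 and Acvr1/Acvrl1, by 0.17, -0.32 and 0.32 between the means, and overlap for the other 3 ratios.

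The genes whose log2 CPM followed Tgfbr1 most closely over the 6 libraries, among 10277 genes that averaged 50 counts or more, were Hgf (Pearson r = 0.992), 9930111J21Rik2 (r = 0.989) and Cd99l2 (r = 0.989). These correlations are descriptions over libraries that differ in genotype and in depth. The largest libraries (sEH-/- replicate 1 and wild-type replicates 2 and 3) had the lowest values of each of these genes, as of Tgfbr1. Hgf, which encodes hepatocyte growth factor, had 87.4, 108 and 107 CPM in sEH-/- and 89.5, 70.4 and 56.3 CPM in wild-type libraries, and like Tgfbr1 it overlapped through sEH-/- replicate 1 and wild-type replicate 1.

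Outside the 9 members, 76 other genes of the pathway were tested, of which 3 were called higher and 4 lower in sEH-/- macrophages, with a median log2 fold change of 0.017, where 2.61% of all tested genes were called. They were grouped into 6 lists by role, and the calls fell on ligands, a co-receptor, genes of TGF-β activation and a target.

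Of 7 tested further ligands, 2 were called lower and none higher, and the median log2 fold change was -0.28. Gdf15, a distant member of the TGF-β family that is induced in stressed cells, had 11.8, 4.04 and 7.42 CPM in sEH-/- and 21.1, 60.9 and 57.9 CPM in wild-type libraries (edgeR log2 fold change -2.57, SE 0.42, adjusted p = 0.018). Bmp8a, a BMP ligand, was sparse, with 3 to 5 counts in sEH-/- and 8, 36 and 26 counts in wild-type libraries, and was tested only because of its wild-type counts (edgeR log2 fold change -2.49, SE 0.51, adjusted p = 0.031). Lefty1, a secreted inhibitor of Nodal, was at 5.62 ± 2.36 and 12.9 ± 3.26 CPM (SD, n = 3 each) and was not called (log2 fold change -1.23, adjusted p = 0.054 from edgeR).

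Of 8 tested further receptors and co-receptors, 1 was called lower and none higher, with a median of -0.24. The called gene was Cd109, a membrane-anchored co-receptor that binds TGF-β1 and inhibits its signaling, with 71.5, 60.5 and 64.9 CPM in sEH-/- and 94.8, 136 and 105 CPM in wild-type libraries. The libraries did not overlap, and Cd109 was called with a log2 fold change of -0.78 and an SE of 0.13 (edgeR, adjusted p = 0.018). The co-receptor Nrp1 (log2 fold change -0.065, adjusted p = 0.76) and the activin type I receptor Acvr1b, or Alk4 (0.22, adjusted p = 0.11), were not called.

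Of 15 tested genes for the latency and activation of TGF-β, 2 were called higher and 1 lower, with a median of 0.14. Thbs1, which encodes thrombospondin-1, an extracellular protein able to activate latent TGF-β, was at 675, 655 and 752 CPM in sEH-/- and at 429, 288 and 270 CPM in wild-type libraries. All sEH-/- libraries were above all wild-type libraries, by 2.12-fold (edgeR log2 fold change 1.08, SE 0.16, adjusted p = 0.014). Mmp9, a gelatinase that can release TGF-β, was at 103, 49.8 and 41.0 CPM in sEH-/- and at 14.9, 16.6 and 17.6 CPM in wild-type libraries (edgeR log2 fold change 2.0, SE 0.31, adjusted p = 0.016). As Mmp9 is also a neutrophil gene, neutrophil markers were read beside it. The 5 analyzed of 8 listed summed to 27.5 to 31.1 CPM in sEH-/- and 17.4 to 21.0 CPM in wild-type libraries, nearly all of it S100a8, at 24.0 to 29.7 against 17.1 to 20.1 CPM. The granule gene Camp was low (0.605 to 1.71 against at most 0.22 CPM, from 3 to 10 counts against 1) and also did not overlap. Elane, another granule gene, had 1 to 3 counts in sEH-/- and 0 or 1 in wild-type libraries. Its counts met at 1, whereas its CPM did not overlap (0.232 to 0.605 against at most 0.179). S100a9 and Ltf, at 6 counts or fewer, overlapped between the genotypes. The part of these markers in the Mmp9 difference was not tested. Itgb3, the β3 integrin subunit, whose dimer with αV binds latent TGF-β, was lower, at 45.0, 26.0 and 49.2 CPM against 73.7, 155 and 100.4 CPM (edgeR log2 fold change -1.47, SE 0.27, adjusted p = 0.025). Itga2b, the platelet partner of Itgb3, was also lower in each sEH-/- library, at 2.22, 1.82 and 2.32 CPM against 3.52, 6.17 and 3.76 CPM, while the 4 platelet markers analyzed of 6 listed summed to 74.7 to 79.4 CPM in sEH-/- and 69.1 to 74.3 CPM in wild-type libraries. Their part in the Itgb3 difference was not tested. Itgb1, an integrin subunit with a broad range of partners, had a log2 fold change of 0.021 (adjusted p = 0.92).

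None of the 6 tested extracellular antagonists was called (median 0.093), among them Twsg1 (-0.14, adjusted p = 0.35) and Fstl1 (-0.28, adjusted p = 0.11). None of the 30 tested Smads and receptor regulators was called (median 0.023), and those with the most counts, the Smad corepressors Skil (0.20, adjusted p = 0.19) and Ski (0.23, adjusted p = 0.11), did not pass the test. Pmepa1, a TGF-β-induced gene that limits Smad2 and Smad3 activation, had a log2 fold change of 0.47 (adjusted p = 0.041). Ppp1r15a, a phosphatase subunit that takes part in dephosphorylating Alk5, had one of -0.47, at 63.2 ± 1.51 against 87.1 ± 7.40 CPM (adjusted p = 0.022). Both passed the adjusted p of edgeR but not the fold threshold. Pmepa1 no longer passed it with the library total in the fit (adjusted p = 0.074), with a replicate block (0.061), after removal of sEH-/- replicate 2 (0.095), or after removal of replicate 2 (0.20) or 3 (0.16) of the wild-type. Ppp1r15a no longer passed it without the same 3 libraries (adjusted p = 0.075, 0.12 and 0.12). Smad2 (-0.098, adjusted p = 0.45), Smad3 (0.16, adjusted p = 0.64) and Smad4 (-0.11, adjusted p = 0.33), and Smurf2, a ubiquitin ligase for Alk5 (0.051, adjusted p = 0.78), are given for their roles and were chosen after their values were known.

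Of 15 tested direct targets of Smad signaling besides Tgfb1, which is also a target, 1 was called higher and none lower, with a median of 0.20. This was Fn1, encoding fibronectin, with 167, 326 and 295 CPM in sEH-/- and 91.0, 84.0 and 65.4 CPM in wild-type libraries (edgeR log2 fold change 1.71, SE 0.22, adjusted p = 0.0087). The stromal markers, whose cells also express Fn1, summed to 14.6 to 24.4 CPM in sEH-/- and 9.23 to 70.7 CPM in wild-type libraries. Each of the 7 analyzed of 8 listed overlapped between the genotypes. The highest library was an sEH-/- library for Pdgfrb and Dcn, and a wild-type library for Col1a1, Col1a2, Col3a1, Pdgfra and Postn. The part of these markers in the Fn1 difference was not tested. Tgfbi, the target with the most counts, overlapped between the genotypes (0.20, adjusted p = 0.40).

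The 7 called genes kept their direction with any 1 library left out, but their calls did not all hold. Fn1 lost its call without wild-type replicate 3 (adjusted p = 0.084). Thbs1, Mmp9 and Gdf15 lost theirs without wild-type replicate 2 (adjusted p = 0.074 each) and without wild-type replicate 3 (adjusted p = 0.094, 0.11 and 0.12). Cd109, Itgb3 and Bmp8a lost theirs without either of these libraries (adjusted p from 0.057 to 0.15) and also without sEH-/- replicate 2 (adjusted p = 0.060, 0.061 and 0.10). Bmp8a was also not called by limma-voom (adjusted p = 0.054), nor Itgb3 with the library total in the edgeR fit (adjusted p = 0.051). Without wild-type replicates 2 and 3 in turn, 0.183% and 0.0437% of all tested genes were called, compared with 4.51% without wild-type replicate 1 and with 3.78%, 0.696% and 4.12% without sEH-/- replicates 1, 2 and 3, and each of these fits called none of the 9 members.

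**Figure D5:**
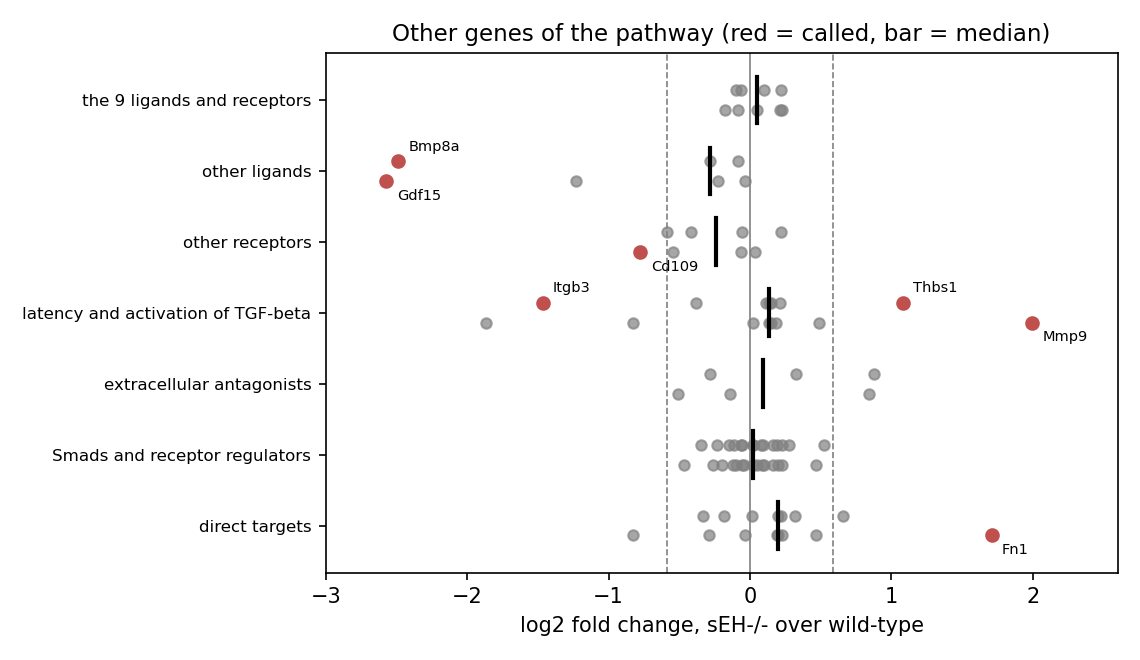
Log2 fold change, sEH-/- over wild-type, of the 9 ligands and receptors and of the tested genes in 6 lists of other pathway genes, where each point is a gene, red marks a called gene, the black bar is the median of the list and dashed lines mark a 1.5-fold change in either direction. The 9 members lie between the dashed lines, and the 7 called genes are Gdf15, Bmp8a, Cd109 and Itgb3 on the lower side and Thbs1, Mmp9 and Fn1 on the higher side.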

How the data were processed

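RNA of M2c macrophages (3 mice per genotype) was sequenced, and groups were taken from the genotype in the labels. The authors deposited raw counts of reads per gene, not normalized, made per the labels with Trimmomatic 0.39, STAR 2.7.7a (mm10), Picard 2.21.7 and featureCounts 1.6.5. Duplicate, multi-mapping, ribosomal and mitochondrial reads had been removed, and reads were counted over exons by strand without those over several genes, so that the antisense and overlapping genes at Eng, Inhba, Bmpr2, Acvr1, Bmpr1a and Acvrl1 could take or hide reads only where exons overlap. The labels describe an mRNA kit and the methods a total RNA kit. The sources name no batch.

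Counts were analyzed in R 4.3.3 with edgeR 4.0.16 (TMM, glmQLFit, glmQLFTest, no covariate, common biological coefficient of variation 0.0866). Genes with a mean above 5 counts were tested, which kept 99.8% of all counts, with Benjamini-Hochberg adjustment over 13785 genes. SE was taken from the quasi-likelihood F statistic, as the absolute log2 fold change over the root of F. P-values measure the spread between these 3 libraries a group. Exonic lengths were those of the GENCODE annotation for mm10, and coordinates those of the matrix. No pair of libraries agreed within counting noise (chi-square per degree of freedom 2.27 to 4.91). The script was tested on simulated data. Same-numbered libraries did not deviate together.

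Named genes were the 9 members, Ephx2, called genes and the 2 most abundant genes of each pathway list, the 3 genes most like Tgfbr1 and leading markers of other cell types. The members and lists were chosen with earlier results of these data known, and Skil, Pmepa1, Smad6, Smad7 and Ltbp2 stand in 2 lists. Alternatives were DESeq2 1.42.0, limma-voom (limma 3.58.1), other normalizations and filters, thinning, the library total as a covariate, a ceiling of 1 count per exonic base, glmTreat, a replicate block and leaving out each library.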

Additional observations from a re-analysis of the deposited data

How the results depend on the processing

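No member was called under any alternative, among them DESeq2 (3.56% of all genes called, 2 members with an unadjusted p below 0.05) and limma-voom (2.23%, 2 members). With each library left out in turn, the number of members called was 0 throughout, while the number of all genes called ranged from 6 to 625 against 360. The log2 fold changes then ranged from 0.066 to 0.17 for Tgfb1, 0.14 to 0.30 for Tgfbr1, 0.0020 to 0.087 for Tgfbr2, -0.15 to -0.051 for Acvrl1, 0.18 to 0.29 for Acvr1, -0.54 to 0.012 for Bmpr1a, -0.18 to -0.013 for Bmpr2, 0.14 to 0.32 for Eng and -0.13 to 0.030 for Inhba. Bmpr1a (0.012) and Inhba (0.030) changed sign without sEH-/- replicate 2. The cause was not tested. No ratio changed sign, but the difference ranged from -0.41 to -0.011 for Bmpr1a to Bmpr2 and from -0.30 to -0.048 for Inhba to Tgfb1 (without sEH-/- replicates 1 and 2 respectively), and from 0.083 to 0.23 for Eng to Tgfbr2. The number called ranged from 0 to 3 among the further ligands, 0 to 1 among the further receptors, 0 to 3 among the latency genes and 0 to 2 among the direct targets.

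With replicate number as a block in the fit, 0 members were called (lowest adjusted p = 0.29) and 234 genes in all. Same-numbered libraries had correlations of -0.082, -0.26 and -0.037 in their deviations, where the other pairs had -0.076 to 0.16. No common deviation was seen, but a shared litter or handling of same-numbered libraries was not tested. With the length of the longest transcript, wild-type levels were 68.5 (Tgfb1), 38.8 (Tgfbr1), 43.8 (Acvrl1), 17.8 (Acvr1), 17.3 (Bmpr2) and 55.1 (Eng) CPM per kb. With 3 libraries a group, differences as small as those of Tgfbr1, Acvr1 and Eng were not separable from the spread after correction.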
